A study of Mus musculus with 2 samples.

Results

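The 38 genes described here encode parts of the primary cilium, the single non-motile antenna that projects from most kidney epithelial cells. They were taken from a fixed list of names, not from their CTCF signal, and comprise 14 genes of intraflagellar transport (11 of the IFT-B complex and 3 of IFT-A), 9 genes of the BBSome and its assembly, 11 genes of the transition zone, and 4 genes for cilium motors or a ciliary membrane GTPase. All 38 names were found in the mouse GENCODE annotation (mm10, also called GRCm38), against a background of 21755 protein-coding genes. The annotation types 37 of the 38 as protein-coding and Tctn2 as a processed transcript; Tctn2 was kept as a member. CTCF was profiled by chromatin immunoprecipitation and sequencing (ChIP-seq) in whole kidney of newborn B6NCrl mice, at age 0 days, with no treatment in the labels and sex not collected. The 2 libraries form 1 group, so there is no contrast between conditions. The labels call them biological replicates 1 and 2 but give both the same biosample and donor, so the spread between them may be technical. Whole kidney holds many cell types, and peaks from a minority of cells cannot be told apart from weak peaks in all of them.

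Cilia are built by intraflagellar transport: IFT-B carries cargo to the tip with kinesin-2, IFT-A returns it with cytoplasmic dynein 2, and the BBSome links membrane proteins to these trains. The transition zone is the gate at the base of the cilium that controls which proteins enter and leave. Mutations in these genes cause ciliopathies, among them nephronophthisis, Bardet-Biedl, Joubert and Meckel syndromes, in which cystic or scarred kidneys are frequent. CTCF is a zinc-finger protein that binds a long DNA motif, stops loop extrusion by cohesin, and is found at many promoters.

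A gene was said to have a promoter peak when a peak summit of the reproducible (optimal) peak list lay within 1 kb of any of its annotated start sites. Of the 38 members, 19 (50%, 95% Wilson interval 34.8 to 65.2), had such a peak, against 39.4% of all protein-coding genes (8576 of 21755). The interval of the members contains the background share, and the difference was not tested. The share depended on the window. With 500 bp on each side it was 31.6% of the members against 32.1% of all genes. Of the 22 distinct promoter peaks, 14 had summits within 500 bp of a start site and 8 lay between 500 bp and 1 kb. Transition-zone genes had a promoter peak in 8 of 11 cases (72.7%, interval 43.4 to 90.3), intraflagellar transport genes in 7 of 14 (50%, 26.8 to 73.2), and BBSome genes in 4 of 9 (44.4%, 18.9 to 73.3). None of the 4 motor and GTPase genes had one (upper limit of the interval 49.0%). These intervals overlap one another, and differences between roles were not tested. Keeping only the upper 50% of optimal peaks by signal left a promoter peak at 23.7% of the members and 36.4% of transition-zone genes, against 19.8% of all genes.

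**Figure D1:**
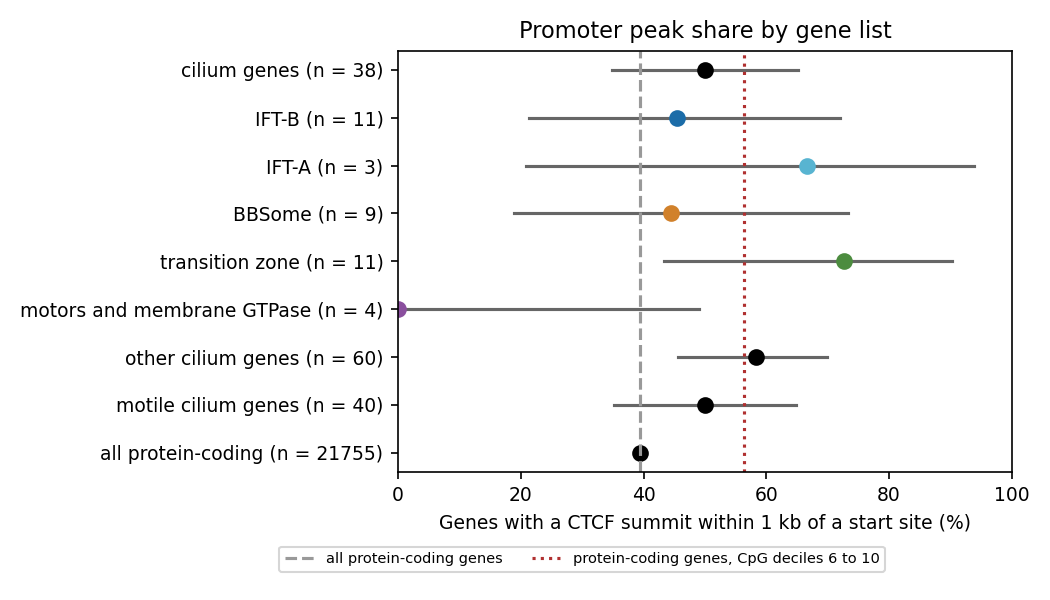
Share of genes with a CTCF promoter peak (percent, x axis) for each role group and for all protein-coding genes; points are shares, bars are 95% Wilson intervals, the dashed line is the share over all protein-coding genes and the dotted line that over genes in CpG deciles 6 to 10 (56.4%). Transition-zone genes stand at 72.7% and motor and GTPase genes at 0, against 39.4% of all protein-coding genes.

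Of the 19 members, 7 carried a sequence that matched the CTCF motif under their strongest promoter peak. They are shown because they are the DNA under the promoter peaks of these genes. Each is a stretch of 19 bases in the orientation of the motif, 5′ to 3′, and the capitals mark the motif's core, positions 4 to 16.
Tctn3: ccgCCGCTAGATGGCAgct
Ift46: tggCCACTAGATGTCAcaa
Bbs10: gcgCCTCCAGGAGGCAgcc
Ift140: agtCCAGCAGGGGGCTcta
Tctn1: acaCCAGCAGAGGGCAtca
B9d2: acgCCAGAAGAGGGCAgag
Bbs9: attCCTCTAGGGGGCAcat
They lie at chr19:40612411-40612429 (Tctn3, plus strand), chr9:44772830-44772848 (Ift46, plus), chr10:111298864-111298882 (Bbs10, minus), chr17:25017041-25017059 (Ift140, minus), chr5:122265355-122265373 (Tctn1, plus), chr7:25680122-25680140 (B9d2, plus) and chr9:22679661-22679679 (Bbs9, minus). Over all 22 promoter peaks of the members, 8 had a match within 100 bp of the summit (36.4%, interval 19.7 to 57), against 42.9% of the promoter peaks of all protein-coding genes. The eighth is under a second peak of Ift122. A match is a description of the letters and shows no contact. The share moved with the motif model: a matrix learned from all sequence, repeats included, gave 18.2% of the members' promoter peaks and 18.8% of all. It also moved with the library: without replicate 1 the share was 24.0% (39.2% of all), and without replicate 2 it was 42.9% (44.4% of all). Here and below, leaving out a replicate means using the 65482 highest-signal peaks of the other library's own list. The reproducible list was not remade.

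Signal is given below as the percentile of a peak in the optimal list, where 100 is the strongest, and as its rank by signal in each library's own list of 300000 peaks, where 1 is the strongest. The strongest promoter peaks of the 19 members had a median percentile of 37.0 (range 3.23 to 99.3), against 50.1 for all genes with a promoter peak. Of the 19, 9 lay above percentile 50 (47.4%), against 50.1% of all genes with a promoter peak. The median moved with the list used: it was 57.1 without replicate 1 and 36.7 without replicate 2.

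**Figure D2:**
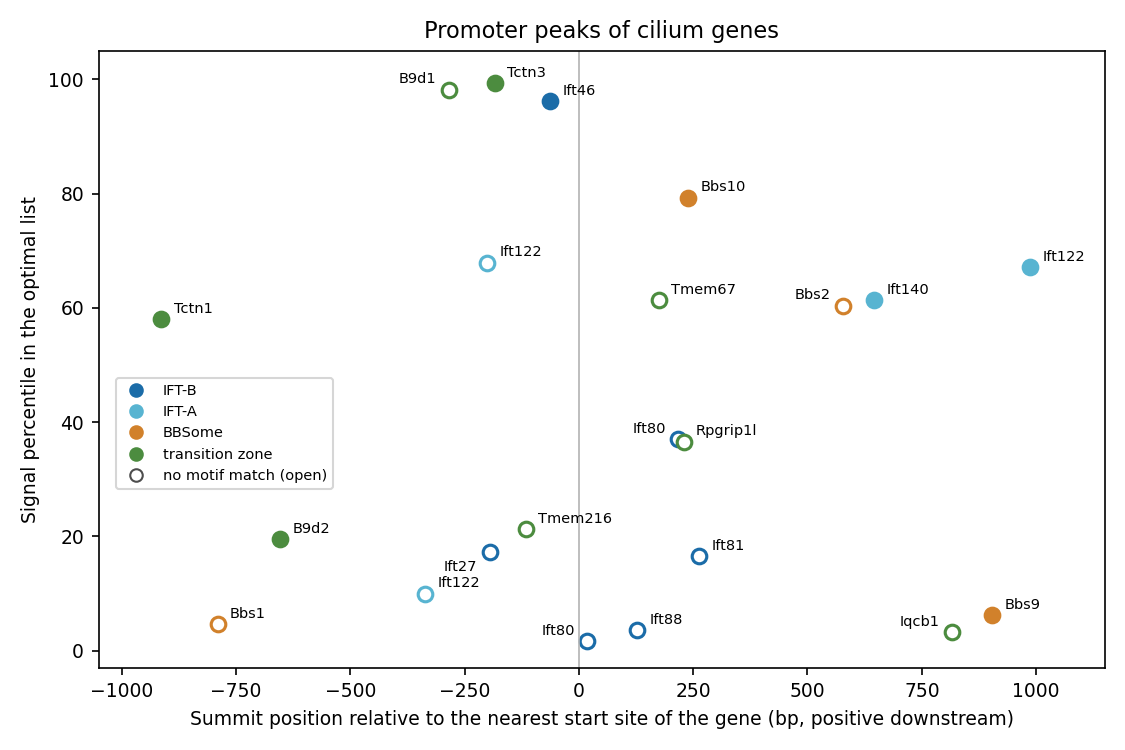
Signal percentile in the optimal list (y axis) against position relative to the nearest start site (x axis, bp, downstream positive) for the promoter peaks of the members, coloured by role, filled where the CTCF motif matched. Tctn3, B9d1 and Ift46 stand highest, at 96.2 or above, while Ift88, Iqcb1, Bbs1 and Bbs9 lie at 6.25 or below.

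Among the IFT-B genes, Ift46 had by far the strongest promoter peak. Ift46, a core subunit needed for the stability of IFT-B, had its summit 62 bp upstream of a start site (chr9:44772705-44773017), at percentile 96.2, rank 3072 in replicate 1 and rank 2104 in replicate 2. The peak lies at an internal start site, 3668 bp from the 5′ end of the gene, inside an intron of another transcript. Ift80, a subunit mutated in skeletal ciliopathies, had 2 listed summits, 217 and 18 bp downstream, at percentiles 37.0 and 1.64. Both overlap a single peak in each library, of rank 41451 in replicate 1 and 40869 in replicate 2, so they are not independent sites. They also lie within 1 kb of a start of Smc4, a condensin subunit. Ift27, a small GTPase-like subunit involved in BBSome exit from the cilium, had a summit 195 bp upstream at percentile 17.2, with ranks 60033 and 55583 in replicates 1 and 2. Ift81, which with Ift74 binds tubulin, had a summit 262 bp downstream at percentile 16.5, with ranks 54371 and 76520. Ift88, whose disruption in the Oak Ridge mouse causes polycystic kidneys, had a summit 128 bp downstream at percentile 3.54, with ranks 68238 and 104734. In these 3 genes the signal was low in both libraries, and Ift81 and Ift88 were weaker in replicate 2 by rank.

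The other 6 IFT-B genes had no promoter peak. Their nearest optimal summits lay 1148 bp from a start site for Ift172, a large peripheral subunit, 1782 bp for Ift20, which also works at the Golgi, 2308 bp for Ift22, a GTPase-like subunit, and 9268 bp for Ift74. The core subunit Ift52 had its nearest summit at 17394 bp and the peripheral subunit Ift57 at 55555 bp, the farthest of all 38 members. Of the IFT-A genes, 2 of 3 had a promoter peak. Ift122 had 3, with summits 200 bp upstream (percentile 67.9), 987 bp downstream (67.1) and 336 bp upstream of an internal start (10). Replicate ranks were 23554 and 17136 for the first peak, 23460 and 19478 for the next, and 84690 and 45944 for the weakest. A start site of Mbd4, a DNA repair glycosylase, lies 99 bp from that of Ift122 on the other strand. Ift140, mutated in human nephronophthisis with skeletal defects, had a summit 645 bp downstream, in an intron (chr17:25016969-25017136), at percentile 61.4 and ranks 25813 and 26971. The peak of Ift140 and the 2 stronger peaks of Ift122 ranked among the first 65482 in both libraries, and the weakest of Ift122 only in replicate 2. Ift43, the small IFT-A subunit, had its nearest summit 2952 bp away, and that peak stood at percentile 97.0.

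BBSome genes had promoter peaks in 4 of 9 cases. Bbs10, a chaperonin-like protein needed to assemble the complex, was highest: its summit lay 238 bp downstream (chr10:111298765-111299065), at percentile 79.3 and ranks 14311 and 10065. Bbs2, a core subunit, had a summit 578 bp downstream, in a coding exon (chr8:94098286-94098426), at percentile 60.4 and ranks 27576 and 22856. Bbs9 and Bbs1, also core subunits, were near the bottom of the list. Bbs9 had a summit 904 bp downstream of an internal start at percentile 6.25, with ranks 61668 and 115838. Bbs1 had a summit 790 bp upstream at percentile 4.69, with ranks 64194 and 65649. The count rests on weak peaks: without replicate 1, 2 of 9 BBSome genes (22.2%) had a promoter peak, against 39.2% of all genes. Without replicate 2, 5 of 9 did (55.6%), against 39.1%. With 500 bp on each side, the share was 11.1%, against 32.1% of all genes. The nearest summits of the others lay 4730 bp away for Bbs4, 4996 bp for Bbs7, 6940 bp for Bbs5, 9683 bp for the chaperonin-like Bbs12 and 15189 bp for Arl6, the GTPase that recruits the BBSome to membranes.

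The 2 strongest promoter peaks of the whole list belonged to transition-zone genes. Tctn3, a member of the tectonic family, had a summit 184 bp upstream (chr19:40612228-40612551), at percentile 99.3, rank 263 in replicate 1 and rank 831 in replicate 2. Entpd1, a cell-surface nucleotidase, starts 133 bp away on the other strand, and the peak lies within 1 kb of its start as well. B9d1, a B9-domain protein of the same gate complex, had a summit 285 bp upstream (chr11:61504693-61505051), at percentile 98.2 and ranks 690 and 2380, with no motif match within 100 bp. Both genes were high in both libraries, with replicate 1 ahead. In the middle range, Tmem67, a receptor-like membrane protein mutated in Meckel syndrome, had a summit 175 bp downstream of an internal start, in a coding exon, at percentile 61.3 and ranks 25058 and 26754. Tctn1 had a summit 913 bp upstream at percentile 58, with ranks 26850 and 29245. Rpgrip1l, a scaffold of the transition zone, had a summit 229 bp downstream of an internal start at percentile 36.6, with ranks 42370 and 40575. These 3 kept close ranks in both libraries. At the low end, Tmem216 had a summit 116 bp upstream of an internal start, in an intron, at percentile 21.3, with ranks 63402 and 60476. B9d2 had a summit 653 bp upstream at percentile 19.5, overlapping a peak of rank 44858 in replicate 1 and of rank 217102 in replicate 2. Iqcb1, a calmodulin-binding nephronophthisis protein, had a summit 817 bp downstream at percentile 3.23, overlapping ranks 130776 and 51888. By the highest-ranked summit in the promoter, which need not be the optimal one, the ranks were 44858 and 69978 for B9d2 and 82367 and 51888 for Iqcb1. B9d2 was thus stronger in replicate 1 and Iqcb1 in replicate 2, by either measure. The other 3 transition-zone genes had nearest summits 3116 bp (Nphp4), 3746 bp (Tctn2) and 12324 bp (Cep290) from a start site. Cep290, a scaffold often mutated in these diseases, did have a promoter summit in the conservative list.

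The motors and the membrane GTPase had none within 1 kb. Kif3a, a subunit of kinesin-2, had its nearest summit at 1631 bp, and Kif7, the kinesin that regulates Hedgehog signalling at the tip, at 3289 bp. Arl13b, the GTPase of the ciliary membrane, had its nearest at 11204 bp, and Dync2h1, the heavy chain of the retrograde motor, at 31990 bp. Over all 38 members, the median distance to the nearest optimal summit was 1030 bp, against 2521 bp over all genes. For 6 members it was above 10 kb (15.8%), against 30.4% of all genes. Neither comparison was matched for CpG ratio or number of start sites, whose medians are higher in the members, as given below. Around the threshold of 1 kb, the members just inside were Bbs9 at 904 bp and Tctn1 at 913 bp, and those just outside were Ift172 at 1148 bp and Kif3a at 1631 bp.

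The libraries were next compared gene by gene, using in each the 65482 peaks of highest signal, the size of the optimal list. A promoter peak of this set was found for 19 members in replicate 1 and 16 in replicate 2. It was found in both for 13 members (34.2%), against 33.5% of all genes, and in only 1 library for 9 (23.7%), against 11.3% of all genes. There were 4 members without an optimal promoter peak that had one in 1 library, Ift57 and Bbs7 in replicate 1, and Ift20 and Cep290 in replicate 2. In the conservative list, 16 members (42.1%) had a promoter peak, against 36.6% of all genes, and Ift27, Ift88, Bbs9 and Iqcb1 were the 4 members that had one only in the optimal list. Among the 19 members with no optimal promoter peak, 15 had a summit in the full list of both libraries (78.9%), against 40.4% of all such genes and 61.7% of those in CpG deciles 4 to 10. Ift74, Bbs5 and Tctn2 had one in replicate 1 only, and Arl13b in replicate 2 only. None of the 19 was among the 65482 highest-signal peaks of both libraries. Their ranks in replicates 1 and 2 varied: Ift20 stood at 96209 and 56920, Bbs12 at 75271 and 67992, and Ift52 at 158317 and 118885. These full lists hold peaks of very low signal and show no binding by themselves.

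**Figure D3:**
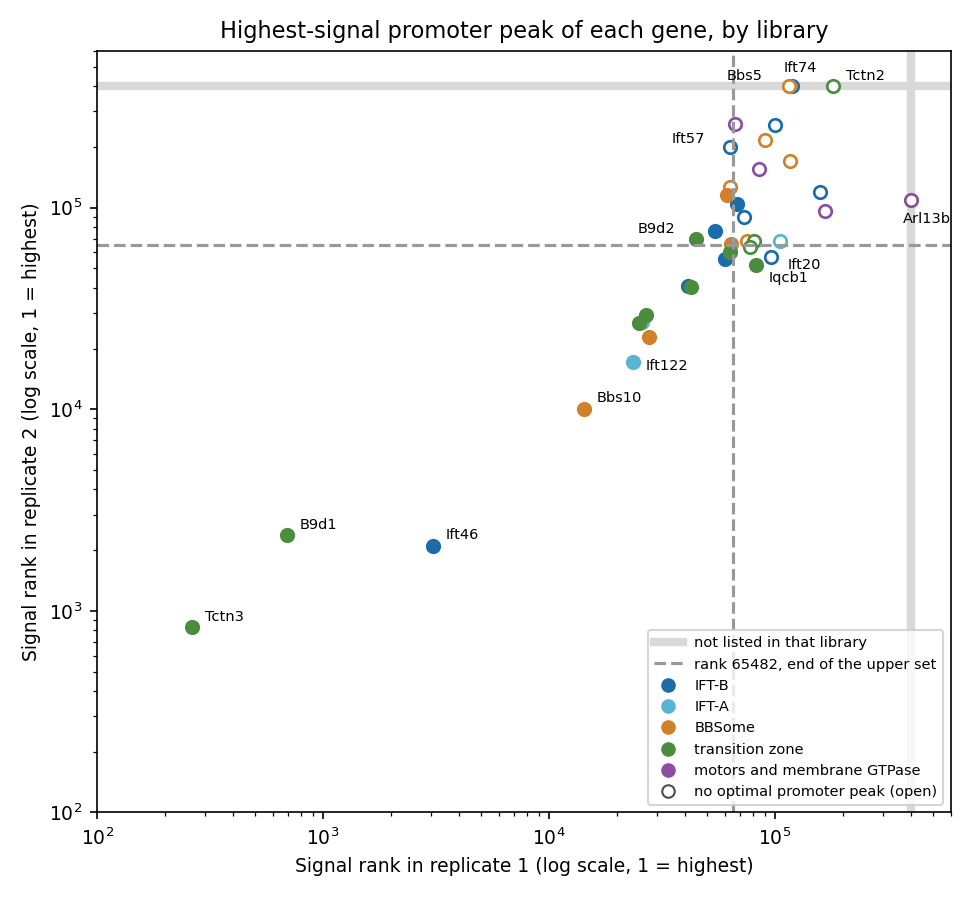
Rank by signal of each member's highest-ranked promoter summit in replicate 1 (x axis) and replicate 2 (y axis), both on log scales, coloured by role and open where there is no optimal promoter peak; dashed lines mark rank 65482 and grey bands hold members not listed in that library. Tctn3 and B9d1 lie in the strongest corner at ranks 263 and 690 in replicate 1, while members with no optimal peak lie at ranks of 56920 or weaker.

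The members have CpG-rich promoters. Their median ratio of observed to expected CpG, within 500 bp of the 5′ end, was 0.697, against 0.558 over all genes, and they had a median of 5 annotated start sites, against 3. Over all genes, the share with a CTCF promoter peak was 5.65% in the lowest CpG decile and 56.1% in the highest. Of the members, 36 fell in deciles 6 to 10, and 19 of these had a promoter peak (52.8%, interval 37.0 to 68.0), against 56.4% of all genes in those deciles. Set beside genes of similar CpG content, the members' share was not the higher of the pair. The interval given for the transition-zone genes covers all of them, including Nphp4 and Tctn2, which lie below decile 6. It is therefore not matched to the 56.4%, and nothing is read from that pair. Neither of the 2 members below decile 6, Nphp4 and Tctn2, had a promoter peak. In deciles 4 to 10, the span that holds all 38, the share over all genes was 50.7%.

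**Figure D4:**
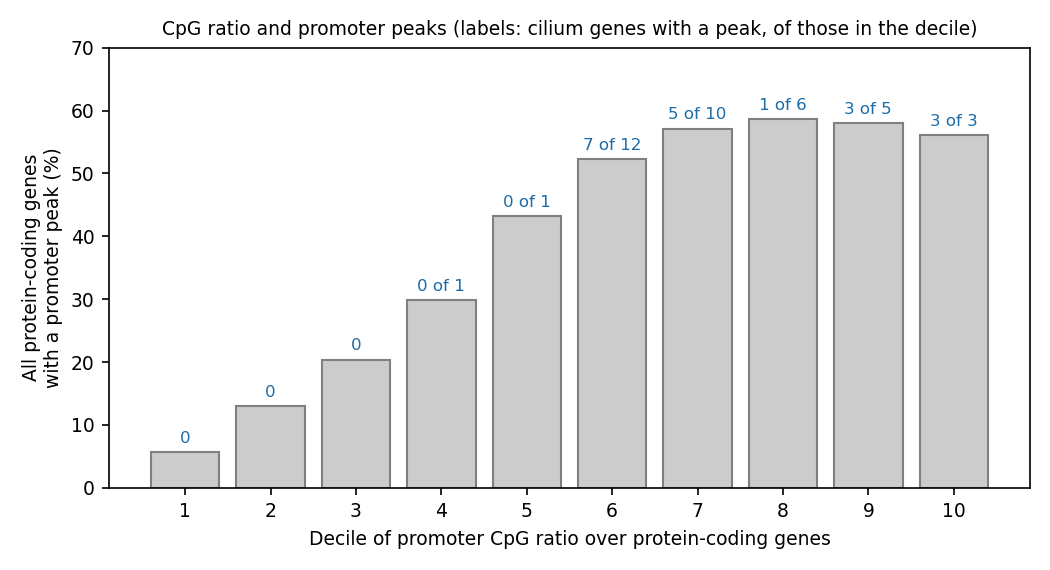
Share of genes with a CTCF promoter peak (percent, y axis) by decile of promoter CpG ratio (x axis, 1 lowest), over all protein-coding genes; labels give the members with a peak of those in the decile. The share over all genes goes from 5.65% in decile 1 to 56.1% in decile 10, and 36 members lie in deciles 6 to 10.

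Paired promoters were frequent among the members. A gene start on the opposite strand lay within 1 kb upstream of 12 of the 38 (31.6%, interval 19.1 to 47.5), against 10.9% of all genes and 14.6% of genes in CpG deciles 4 to 10; the difference was not tested. Among IFT genes the partners were Tnfaip1 (29 bp from Ift20), Arcn1, a coatomer subunit (63 bp from Ift46), Mbd4 (99 bp from Ift122), Smc4 (168 bp from Ift80), Cramp1l (297 bp from Ift140) and the non-coding Gm49694 (354 bp from Ift27). Among transition-zone genes they were the antisense RNA B9d1os (85 bp from B9d1), Entpd1 (133 bp from Tctn3), Tmtc3 (208 bp from Cep290) and the RNA demethylase gene Fto (263 bp from Rpgrip1l). The motor genes Kif3a and Dync2h1 faced the non-coding A430108G06Rik at 66 bp and Dcun1d5 at 74 bp. No BBSome gene of the 9 had such a partner. Of the 12 members with a partner, 8 had a promoter peak (66.7%), against 53.3% of all genes with one. Partners were defined at the 5′ end of the gene, but a promoter peak could lie at any start site. For Ift46 and Rpgrip1l the peak lies at an internal start. Their nearest summits to the paired 5′ end are 3668 and 8308 bp away. Of the 26 without, 11 had a promoter peak (42.3%), against 37.7% of all genes without one. A peak between paired starts cannot be assigned to either gene: 6 of the 22 promoter peaks lay within 1 kb of another gene's start, 4 of them a protein-coding gene's. Both counts include the pair of Ift80 summits, which are not independent sites. No share over the promoter peaks of all genes is at hand for these counts.

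Most members had CTCF peaks inside the gene. A summit lay within the gene body of 26 of 38 members (68.4%, interval 52.5 to 80.9), against 55.5% of all genes. The members are long, with a median length of 33054 bp against 17414 bp, and long genes hold more peaks. Among genes between 19915 and 77288 bp long, 15 of 18 members had one (83.3%), against 72.9% of all. Per 100 kb, the members held 3.59 peaks and all genes 3.42, or 3.90 among genes within the members' range of lengths. Leaving out 1 kb around start sites, 25 members had a body peak (65.8%), against 45.1% of all genes and 49.3% of genes within the members' range of lengths. Between 19915 and 77288 bp, it was 14 of 18 members (77.8%), against 63.9% of all. Bbs9 held 16 peaks over 412566 bp, Ift140 and Nphp4 7 each, and Ift80 6. Dync2h1, by contrast, held 1 in 255944 bp, and Cep290 and Ift57 held 0 in 87283 and 65894 bp. By role, IFT-A genes held 5.50 peaks per 100 kb, transition-zone genes 4.23, BBSome genes 3.87, IFT-B genes 2.62 and the motor and GTPase genes 2.49. The motor and GTPase value includes Dync2h1, which spans 255944 bp of that group's 362 kb and holds 1 of its 9 peaks. The BBSome value includes Bbs9, with 16 of 23 peaks. Over all genes, the density was 8.68 in the lowest decile of length and 2.44 in the highest. The role values were not matched for length. In all, 12 members had a body peak and no promoter peak, and 7 had neither. No share over all genes is at hand for these combined counts, and nothing is read from them.

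**Figure D5:**
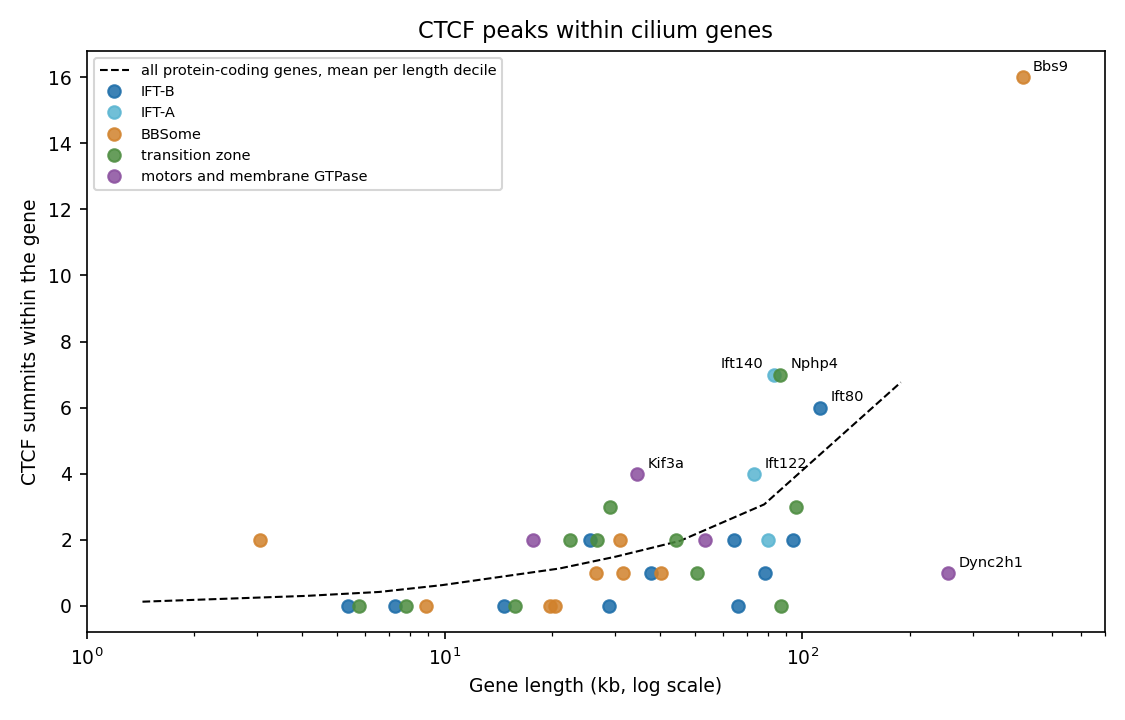
Number of optimal CTCF peaks within the gene body (y axis) against gene length (x axis, kb, log scale) for the members, coloured by role; the dashed line is the mean over all protein-coding genes per decile of length. Bbs9 stands highest with 16 peaks, and Dync2h1 has 1 despite a length of 255944 bp.

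The strongest body peak outside a promoter lay in an intron of Ift122 (chr6:115901055-115901331), at percentile 90.6 and ranks 5976 and 6432. Next came an intron of Bbs9 at 88.9 (ranks 5995 and 9169), an untranslated or non-coding exon of Arl13b at 88.2 (9200 and 7076), an intron of Nphp4 at 88.1 (11710 and 4395) and an intron of Ift74 at 87.6 (6662 and 9528). Arl13b, Nphp4 and Ift74 thus carried a strong peak inside the gene and none at the promoter. Of the 64 body peaks outside promoters, 48 had a motif match (75%, interval 63.2 to 84.0), against 70.2% of such peaks over all genes. The matches under the 4 strongest body peaks that have one are shown, with the core in capitals, to be read beside those of the promoters.
Ift122 intron: ctcCCACTAGATGGCAcag
Bbs9 intron: tggACAGCAGAGGGCGccc
Arl13b exon: tgaACACTAGATGGCGctg
Nphp4 intron: aaaCCACTAGAGGGCGcac
Of the 48 matches in bodies, 33 lay on the strand of the gene and 15 on the other, so 33 of 48 stand beside 48.9% over all genes. In promoter peaks, 2 of 8 lay on the strand of the gene, beside 53.8% over all genes. Neither count was tested. The core most frequent among the members' own matches, CCAGAAGAGGGCA, recurred in 12 of the 56 matches of the members (21.4%), under peaks of 11 members, against 12.4% of all matches in the optimal list. Since the core was picked for its frequency in the members, the choice favours the higher share, and nothing is read from it. All 12 were in soft-masked (repeat-annotated) sequence. B9d2 and the second peak of Ift122 are the 2 promoter examples. Of all 56 matches, 24 were soft-masked (42.9%), against 33.1% over the optimal list.

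In many animals, cilium genes are targets of RFX factors, which bind the X-box. The pattern GTTNCCNNGGNAAC, which reads alike on both strands so that a single scan covers them, was searched with at most 1 mismatch among its 10 fixed letters in RefSeq promoter windows (GRCm38, 250 bp before to 50 bp after a start). Such windows were matched for 34 of the 38 members; none was at hand for Ift80, Ift81, Ift122 and Tmem67. A match was found for 11 of the 34 (32.4%, interval 19.1 to 49.2), against 3.07% of 16433 protein-coding genes and 3.68% of those in CpG deciles 4 to 10. The pattern was present without mismatch in 2 (5.88%), against 0.511% of all genes. Both are printed because they are the only full matches in these windows, with the fixed letters in capitals. In windows of 500 bp on each side of the 5′ end, 4 of 38 members had a full match (10.5%), against 0.735% of all genes, Ift52 and Arl6 being the others.
Tctn1: GTTgCCcgGGcAAC
Bbs7: GTTgCCttGGaAAC
The first lies at chr5:122264411-122264424 and the second at chr3:36613497-36613510, both read on the minus strand. With 1 mismatch, matches were found at Ift22 and Ift57 among IFT-B genes, Bbs1 and Bbs4 among BBSome genes, and Tctn2, B9d1, B9d2, Nphp4 and Tmem216 among transition-zone genes. In these windows the transition-zone genes matched in 6 of 10 cases (60.0%), the BBSome genes in 3 of 9 (33.3%), the intraflagellar transport genes in 2 of 11 (18.2%) and the motor and GTPase genes in 0 of 4. That order turned with the window: with 500 bp on each side of the 5′ end it was 4 of 11 (36.4%), 4 of 9 (44.4%), 6 of 14 (42.9%) and 0 of 4. In that window 14 of 38 members matched (36.8%), against 5.57% of all genes. A CTCF promoter peak was present at 5 of the 11 members with a match and at 10 of the 23 without. The share was 39.4% over all genes and 50.7% over those in CpG deciles 4 to 10. It was not split by X-box match over all genes, and no difference was tested. Where both occurred, the X-box lay 135 bp from the CTCF summit at Tmem216, 285 bp at B9d1, 675 bp at B9d2, 799 bp at Bbs1 and 956 bp at Tctn1. A pattern match does not show that a factor is bound.

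Further gene lists were counted in the same way. Of 60 other primary cilium and basal body genes, 35 had a promoter peak (58.3%, interval 45.7 to 69.9), against 39.4% of all genes. Their promoters are CpG-rich as well, with a median ratio of 0.694, and the interval contains the shares over all genes of CpG deciles 4 to 10 (50.7%) and 6 to 10 (56.4%). The list also holds genes below those deciles, down to a ratio of 0.0528, so these shares are not matched to it. The strongest were at Inpp5e, the ciliary phosphoinositide phosphatase (percentile 97.9, ranks 1378 and 1623), Cep164, a distal appendage protein (91.9, ranks 9088 and 2491), Kifap3, the kinesin-2 accessory subunit (90.6, ranks 3698 and 8573), and Cc2d2a, a transition-zone protein (87.5, ranks 11604 and 6380). Of 40 genes of motile cilia, which have a CpG-poorer median of 0.511, 20 had one (50%, interval 35.2 to 64.8). Their strongest were at Spag1 (84.6), Ccdc65 (82.1), Dnaic2 (78.2) and Dnaic1 (74.7), which encode assembly factors or parts of the motile axoneme.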

How the data were processed

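CTCF ChIP-seq of newborn mouse kidney was used as 5 peak lists in narrowPeak format on mm10, deposited by the authors: optimal, conservative, pooled and 1 per library. Their signal column and the −log10 q-value column are as deposited by the authors. The sources used here do not give the aligner, peak caller, filters or threshold of reproducibility. The lists hold no read counts, so the depth is unknown, and no test or p-value was computed. Only peaks on chromosomes 1 to 19 and X were used. Signal was used only to rank peaks within a list, because its scale depends on the library. The q-value was not used for ranking, and 60069 of the 65482 optimal peaks share the highest one. Of the optimal summits, 55.3% sit at the midpoint of their interval, so distances carry that uncertainty. Summits were joined to 93145 start sites of GENCODE M21 with Python 3.11.15, pandas 2.3.3 and pysam 0.24.0. A CTCF matrix of 19 positions came from optimal peaks on the odd-numbered chromosomes, leaving out soft-masked sequence, and a match scored above 1 in 10000 control positions, taken 2 kb away. Wilson intervals are at 95% and cover counting error only. The procedure was tested on simulated data. All members were accounted for: full values for those with a promoter peak, the nearest summit for the rest, every divergent partner, and from the 2 further lists the 4 strongest promoter peaks found among the 65482 highest-signal peaks of both libraries. Sequences are the motif matches under each member's strongest promoter peak; the body matches and the comparison of X-box and CTCF positions were chosen after their values were seen. The members and lists were chosen with earlier results of these data known. Sensitivity to the list, promoter width, overlap rule, signal filter, motif matrix and each library was examined.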

Additional observations from a re-analysis of the deposited data

How the results depend on the processing

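Of 86 alternatives, 67 left the value within a margin and 19 did not; the cause was not tested. The margin was the 95% Wilson interval for shares and, for medians, the SD of the values without each replicate. Those values are themselves among the alternatives judged. For the median number of body peaks both were 1.00, so any change at all counted as outside the margin. The intervals are wide, so BBSome and motif shares that moved by over 1.5 times stayed inside. With 500 bp on each side, the promoter share was 31.6% for the members and 11.1% for BBSome genes (32.1% of all genes). With the upper 50% of peaks by signal, it was 23.7% for the members, 21.4% for intraflagellar transport, 36.4% for the transition zone, 31.7% for other cilium genes and 22.5% for motile cilium genes (19.8% of all genes), and the body share was 50% (39.0% of all). The median number of body peaks, 1.5, was 1.00 with the conservative list, 1.00 when weaker neighbours of a peak were dropped, 1.00 without 1 kb around start sites and 0.5 with the upper 50%. The median percentile was 55.1 with the conservative list, outside the margin, and 49.2 with 500 bp on each side, inside it. The motif share was 18.2% with the matrix from all sequence and 4.55% at a score of 1 in 100000 control positions (6.12% of all). The X-box share was 5.88% with no mismatch. Leaving out each replicate in turn gave 42.1% to 50% for the members, 42.9% to 50% for intraflagellar transport, 22.2% to 55.6% for BBSome genes, 63.6% to 72.7% for the transition zone, 24.0% to 42.9% for the motif share, 1.00 for the median number of body peaks either way, and 36.7 to 57.1 for the median percentile. No paired analysis was possible because there is 1 group. The unknown read depth limits what the absence of a peak can show.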

Other observations

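Of 7 genes for RFX factors and FOXJ1, families that include known drivers of cilium genes, 4 had a CTCF promoter peak (57.1%, interval 25 to 84.2), against 39.4% of all genes. The promoters of the 7 are CpG-rich, with a median ratio of 0.830 and a lowest of 0.646. In CpG deciles 6 to 10, which span these ratios, 56.4% of all genes had a promoter peak. Foxj1, the regulator of motile cilia, had the highest at percentile 69.4, followed by Rfx2 at 62.2, Rfx7 at 40.4 and Rfx1 at 22.4. Rfx3, Rfx4 and Rfx5 had none within 1 kb of a start site.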
